A study of Homo sapiens with 6 samples.

Results

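Insulin and the insulin-like growth factors (IGFs) act on cells through a small set of receptors, docking proteins and kinases, and the chromatin at 10 of their genes was described here. The genes were taken as a named list: the receptors INSR, IGF1R and IGF2R, the insulin receptor substrates IRS1, IRS2 and IRS4, the phosphoinositide 3-kinase (PI3K) subunits PIK3R1 and PIK3CA, and the kinases AKT1 and AKT2. All 10 were found in the GENCODE annotation of hg38, among 20033 protein-coding genes and 62663 genes of every kind, and for each gene the peaks that overlapped the gene body or the 5 kb on either side of it were collected. That stretch is called the window of the gene.

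The peaks came from ChIP-seq, which sequences the DNA bound to the histones that an antibody pulls down. The cells were HepG2, an established line from a human liver tumour, either untreated (control) or given 10 mM sodium benzoate (SB), a food preservative, for 24 h. Immunoprecipitation used a pan antibody to acetylated lysine (Kac) or one to benzoylated lysine (Kbz), neither of which is specific for a lysine position or a histone. The series held 6 libraries, 1 each of input, Kac and Kbz from control and from SB-treated cells, and 3 of them gave the peak lists examined here, namely Kac in control cells, Kac under SB and Kbz under SB. The labels state that no peak was called in the control Kbz library, so Kbz had no untreated counterpart, and the inputs were not analysed here. A group was a single library, so the spread between replicates is unknown and no list was tested against another.

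In the textbook pathway, the insulin receptor (INSR) and the IGF1 receptor (IGF1R) are receptor tyrosine kinases that phosphorylate the IRS docking proteins when ligand binds. The IRS proteins recruit PI3K, whose regulatory subunit p85alpha is made from PIK3R1 and whose catalytic subunit p110alpha is made from PIK3CA, and the lipid that PI3K makes brings AKT kinases to the membrane. In hepatocytes this route restrains glucose output and promotes glycogen and lipid synthesis. Lysine acetylation of histones is a mark of active promoters and enhancers, while lysine benzoylation is a bulkier acylation of the same residue, for which benzoyl-CoA is the donor and benzoate a source of it.

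The deposited lists numbered 70326 peaks (control Kac), 63282 (SB Kac) and 24308 (SB Kbz), with no read totals, so the depth of the libraries is unknown. Fold enrichment, the ratio of read density in a peak to the background, was therefore read only as a percentile within its own list (a high percentile is a peak stronger than most of that list). The label of the cells was checked at 9 liver genes and 10 genes of other cell types. A promoter, here any stretch within 3 kb of an annotated transcription start site (TSS), held a control Kac peak at 4, an SB Kac peak at 5 and an SB Kbz peak at 1 of the liver genes, and at 5, 6 and 4 of the other genes. ALB, APOB and FOXA2 had no peak anywhere in their windows in any list, and the canonical TSS of the 9 liver genes lay under a peak at 0 of them in each list. Among the genes of other cell types, the canonical TSS lay under Kac in both lists at COL1A1 and COL3A1, and in control Kac at CDH5. Over all protein-coding genes the promoter shares were 76.5% (control Kac), 75.7% (SB Kac) and 64.6% (SB Kbz), and both marker sets lay below them. The peaks at these markers thus did not set the cells apart as liver, and the cells are named below as they were labelled.

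Promoter sequences of the 10 genes were taken from RefSeq (GRCh38.p14), which lists 16 starts for them. The 250 bases upstream of the canonical TSS are shown for 4 of the genes, 5′ to 3′ on the strand of the gene. These do not cover every peak pattern. The PIK3CA stretch, not shown, lay wholly under SB Kac and under no control Kac or Kbz peak. No part of the INSR and IRS2 stretches lay under any peak, the IGF1R stretch lay wholly under Kac but not Kbz, and the IRS1 stretch lay wholly under peaks of all 3 lists. Capitals mark the GC box GGGCGG and the CCAAT box CCAAT on either strand, and a longer run in capitals is a set of matches that overlap or touch.
INSR promoter, chr19:7294415-7294664, minus strand: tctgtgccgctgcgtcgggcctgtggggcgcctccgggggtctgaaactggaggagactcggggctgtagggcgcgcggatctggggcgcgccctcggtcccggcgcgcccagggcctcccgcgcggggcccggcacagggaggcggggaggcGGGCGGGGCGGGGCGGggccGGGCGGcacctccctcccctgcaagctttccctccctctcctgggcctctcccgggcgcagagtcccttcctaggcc
IGF1R promoter, chr15:98648289-98648538, plus strand: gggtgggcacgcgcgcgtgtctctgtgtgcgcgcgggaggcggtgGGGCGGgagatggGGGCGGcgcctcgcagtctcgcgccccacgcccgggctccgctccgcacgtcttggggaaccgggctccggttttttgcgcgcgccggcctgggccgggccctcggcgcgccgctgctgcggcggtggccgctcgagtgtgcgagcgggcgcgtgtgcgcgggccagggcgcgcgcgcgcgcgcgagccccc
IRS1 promoter, chr2:226799821-226800070, minus strand: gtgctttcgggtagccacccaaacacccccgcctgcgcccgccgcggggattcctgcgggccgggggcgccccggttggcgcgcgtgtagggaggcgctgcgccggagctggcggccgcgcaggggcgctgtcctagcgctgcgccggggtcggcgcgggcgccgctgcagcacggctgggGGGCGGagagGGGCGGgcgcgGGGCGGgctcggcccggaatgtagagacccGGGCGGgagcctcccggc
IRS2 promoter, chr13:109786584-109786833, minus strand: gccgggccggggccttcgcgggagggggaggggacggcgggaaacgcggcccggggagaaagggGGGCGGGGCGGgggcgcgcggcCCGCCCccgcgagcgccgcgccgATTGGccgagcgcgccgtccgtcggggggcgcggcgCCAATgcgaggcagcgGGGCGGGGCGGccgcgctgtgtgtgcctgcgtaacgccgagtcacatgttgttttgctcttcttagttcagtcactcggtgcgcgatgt

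The GC box occurred in the canonical promoter of all 10 genes, against 42.5% of 34943 RefSeq promoters. It was found 4 times at INSR, 2 times at IGF1R, 4 times at IRS1 and 5 times at IRS2. The CCAAT box occurred in 2 of the 10, IRS2 and PIK3CA, against 32.0% of all promoters. The forkhead core GTAAACA, the kind of site bound by the insulin-regulated FOXO factors, occurred in the PIK3CA promoter alone among the 10, against 2.98% of all promoters. The TATA box TATAAA (10.8% of all promoters) and the cAMP response element TGACGTCA (1.63%) were in none of the 10. GC content of the 10 canonical promoters ran from 57.6% at PIK3CA to 83.2% at AKT1, against a median of 58.0% over all promoters. The background held every RefSeq start, alternative starts included, whereas each of the 10 genes was scored at its canonical start alone. The PIK3R1 starts at +74.9 and +76.8 kb, for example, held no GC box. These matches describe letters only.

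The 2 highest ranked Kbz peaks of the 10 genes lay inside genes rather than at the canonical promoters. The sequence at the centre of the region shared by all 3 lists is shown for both. The IRS1 site is in intron 1, 8.1 kb downstream of the canonical TSS, in a shared region of 1638 bp. It lies within 3 kb of another annotated IRS1 start. The INSR site is in intron 2, 96.3 kb downstream, in a shared region of 1581 bp. Capitals have the same meaning as above, and both are written on the strand of the gene.
IRS1 intron 1, chr2:226791592-226791891, minus strand: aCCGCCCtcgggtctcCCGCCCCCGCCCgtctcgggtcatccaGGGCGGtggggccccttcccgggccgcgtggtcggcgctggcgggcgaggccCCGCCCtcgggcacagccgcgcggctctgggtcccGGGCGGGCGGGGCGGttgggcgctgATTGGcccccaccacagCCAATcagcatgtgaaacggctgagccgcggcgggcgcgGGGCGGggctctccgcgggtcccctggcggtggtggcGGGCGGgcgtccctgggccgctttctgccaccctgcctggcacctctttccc
INSR intron 2, chr19:7197981-7198280, minus strand: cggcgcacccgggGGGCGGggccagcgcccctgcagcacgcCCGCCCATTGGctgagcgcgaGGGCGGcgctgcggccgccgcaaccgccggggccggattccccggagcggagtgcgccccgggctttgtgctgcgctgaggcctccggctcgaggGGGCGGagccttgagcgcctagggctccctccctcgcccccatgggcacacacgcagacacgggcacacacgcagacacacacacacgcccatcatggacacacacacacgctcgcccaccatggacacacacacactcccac

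Both cores were rich in CpG dinucleotides. The IRS1 core held 38 CpGs and 10 GC boxes at 78.7% GC, with a ratio of observed to expected CpG of 0.819. The INSR core held 33 CpGs and 4 GC boxes at 73.7% GC, with a ratio of 0.825. The median ratio over all RefSeq promoters was 0.556.

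Every one of the 10 genes had a Kac peak in its window and at a promoter, with and without SB, and 8 had a Kbz peak at both. The exceptions for Kbz were IRS2 and PIK3CA, which had no Kbz peak in the whole window. Among all protein-coding genes, 82.6% had a control Kac peak in the window, 81.4% an SB Kac peak and 72.3% an SB Kbz peak. At promoters the shares of protein-coding genes were 76.5%, 75.7% and 64.6%. With these backgrounds, counts of 10, 10 and 8 of 10 lie close to what protein-coding genes show in general. Where only peaks with a −log10 q of at least 5 were kept, 7, 7 and 5 of the 10 genes had a peak in the window and 7, 7 and 4 at a promoter. The shares of all protein-coding genes were not computed at this threshold, so these counts cannot be set beside the shares above.

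The position of the peaks relative to the start varied from gene to gene. The canonical TSS was under a control Kac peak at 6 genes, under an SB Kac peak at 8 and under a Kbz peak at 5, against 59.1%, 60.4% and 45.8% of protein-coding genes, so these counts too lie near the background. All 3 lists covered the TSS of IGF2R, IRS1, AKT1 and AKT2. At IGF1R and PIK3R1 both Kac lists covered the TSS and Kbz lay on either side of it. At IRS4 and PIK3CA the control Kac peaks stopped short of the TSS that the SB Kac peak covered, and at IRS4 a Kbz peak covered it too. No list covered the TSS of INSR or IRS2. Peaks at the canonical promoters of IGF1R, IRS1, IRS2, IRS4, PIK3CA, AKT1 and AKT2 also lay within 3 kb of the start of another annotated gene. Such peaks cannot be assigned to the listed gene alone.

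**Figure D1:**
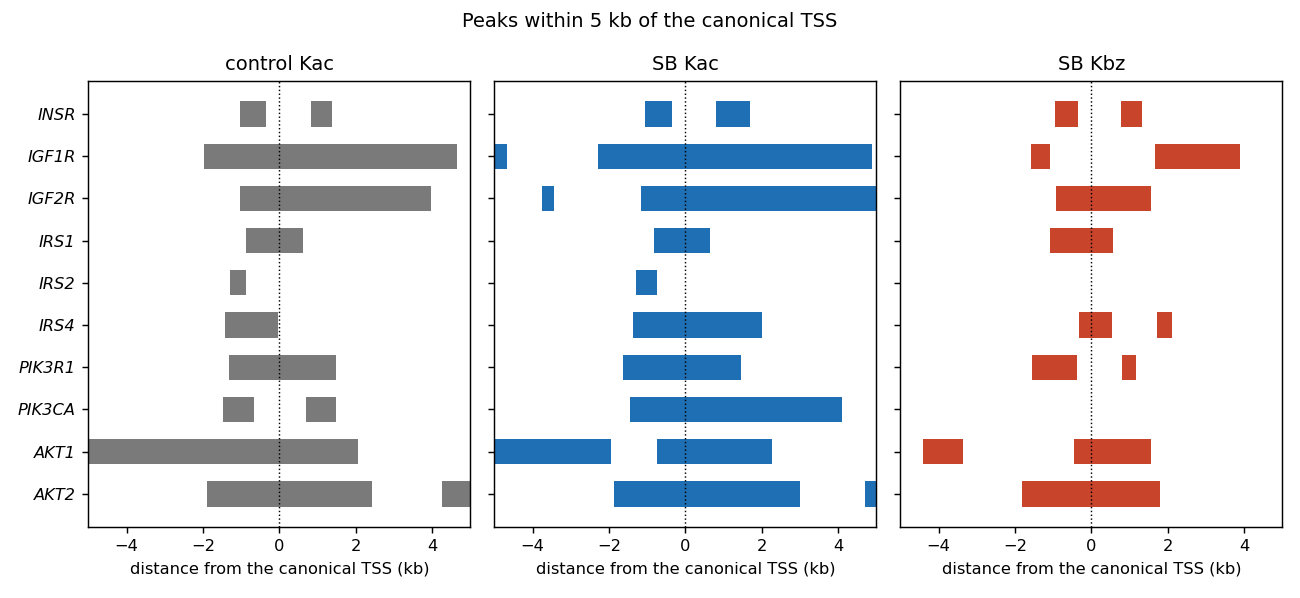
Peaks within 5 kb of the canonical TSS of the 10 genes, 1 panel for each peak list (1 library each); the x axis is the distance from the TSS in kb, positive in the direction of transcription, and each bar is the extent of 1 peak. Kac spans the TSS of IGF1R and PIK3R1 while Kbz does not cover it, and IRS2 and PIK3CA have no bar in the Kbz panel.

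In all, 66 peaks of control Kac, 64 of SB Kac and 22 of SB Kbz fell in the windows, which span 1121 kb. They covered 138.7 kb (12.4%), 128.8 kb (11.5%) and 27.2 kb (2.43%). IGF1R alone held 34 of the control Kac and 30 of the SB Kac peaks. Without IGF1R the order of the Kac lists turned, with 63.7 kb (8.01%) in control and 75.5 kb (9.49%) under SB. The covered length was greater under SB at 7 genes and smaller at 3, IGF1R, AKT1 and IRS1, the last barely so (3.57 kb in control and 3.55 kb under SB). The median of the 10 genes lay at the 43.1, 61.5 and 47.8 percentile of protein-coding genes for the share of the window covered by control Kac, SB Kac and SB Kbz, which is near the middle in each list.

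**Figure D2:**
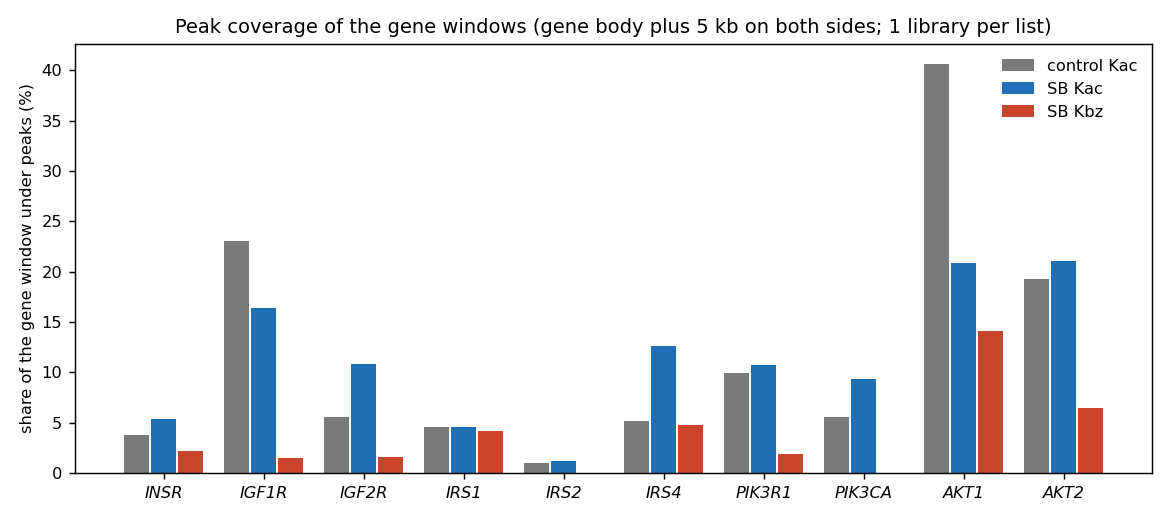
Share of each gene window (gene body plus 5 kb on both sides) that lies under peaks, in percent on a y axis from 0, for control Kac (grey), SB Kac (blue) and SB Kbz (red), with 1 library per bar and so no error bar. AKT1 stands highest in control Kac at 40.6%, and IRS2 lowest at 0.968% in control Kac and 1.23% in SB Kac.

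INSR (ENSG00000171105.14) lies on the minus strand at chr19:7112255-7294414 and encodes the receptor for insulin. Its window had 7 peaks in control Kac, 10 under SB and 4 in Kbz, covering 3.79%, 5.31% and 2.23% of it. At the promoter each list had 1 peak upstream and 1 downstream of the TSS. The upstream peak ran from −1035 to −344 bp in control cells, from −1053 to −341 under SB and from −951 to −350 in Kbz. The downstream peak began at +830, +788 and +782 bp. The 250 bases printed above sit in the uncovered gap between them. The upstream peak was at the 94.2 percentile of control Kac and the 82.1 percentile of SB Kac, but at the 22.3 percentile of Kbz.

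The other main site of INSR was the GC-rich one in intron 2. It ran from +95.5 kb over 1581 bp in control cells, from +94.0 kb over 3365 bp under SB and from +95.4 kb over 2153 bp in Kbz. Here the rank was high in all lists, at the 91.0, 85.9 and 92.5 percentile, and the Kbz peak had a −log10 q of 13.6. Kbz thus ranked far higher at this intronic site than at the INSR promoter. A weaker intron 2 site near +74 kb was also in all 3 lists, at the 49.5, 60.6 and 49.0 percentile. SB Kac had 3 INSR peaks with no control Kac counterpart, all intronic, of which the one at +101.6 to +102.1 kb ranked highest, at the 71.2 percentile with a −log10 q of 4.53.

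IGF1R (ENSG00000140443.15), on the plus strand at chr15:98648539-98964530, encodes the receptor for IGF1 and IGF2. Its window of 326.0 kb carried far more Kac peaks than those of the other members. The 34 control Kac peaks made 10.4 per 100 kb and the 30 SB Kac peaks 9.20 per 100 kb, while the 5 Kbz peaks made 1.53 per 100 kb. AKT1 and AKT2 had about the same density of Kac peaks, 10.99 and 10.73 per 100 kb in control Kac. The median protein-coding gene had 2 control Kac peaks in a window of 37.5 kb, and 36 of the 20033 had at least as many as IGF1R. Most of the Kac peaks of IGF1R were weak, with a median at the 31.2 percentile of control Kac and the 19.2 percentile of SB Kac.

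Around the IGF1R start lay one broad Kac domain of 6636 bp in control and 7164 bp under SB, from −1976 and −2286 bp to +4659 and +4877 bp, at the 89.3 and 83.7 percentile. Kbz there formed a pair of peaks, from −1583 to −1080 bp and from +1669 to +3878 bp, at the 75.2 and 82.2 percentile. The sequence between them, including the GC-rich promoter printed above, held Kac but no Kbz peak. The remaining 3 Kbz peaks of IGF1R were in intron 2 at +203.9, +217.0 and +224.9 kb, each overlapping a Kac peak of both lists. The last of them lies within 3 kb of another annotated IGF1R start. The one at +217.0 kb ranked at the 76.0 percentile of Kbz and the 77.5 percentile of SB Kac, while the control Kac peak there was at the 19.9 percentile.

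Part of the IGF1R Kac peaks were in a single list. In control Kac 12 of 34 peaks had no SB Kac peak over them, and under SB 6 of 30 had no control Kac peak. These are about the unshared share of the whole control list and below that of the whole SB list, in which 64.7% and 72.5% of the peaks were shared. The highest ranked of the former was at +294.4 to +297.0 kb over exon 19, at the 42.0 percentile. The highest ranked of the latter was at +150.1 to +153.4 kb in intron 2, at the 73.6 percentile with a −log10 q of 6.002. Shared peaks also differed in length, such as the control peak of 8740 bp from +236.5 kb over exon 3, where the SB Kac peak was 659 bp long. In all, Kac covered 75.0 kb of the window in control and 53.3 kb under SB.

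IGF2R (ENSG00000197081.16), at chr6:159969082-160113507 on the plus strand, encodes the cation-independent mannose 6-phosphate receptor, which takes up IGF2 for breakdown and has no kinase. Its peaks were confined to the 5′ part of the window, within 20.4 kb downstream of the start. The TSS was covered in all lists, by 5002 bp of control Kac, 7635 bp of SB Kac and 2488 bp of Kbz. The Kbz peak had the highest rank of any Kbz peak at a canonical promoter of the 10 genes, at the 88.3 percentile with a −log10 q of 15.3, while the Kac peaks were at the 67.2 and 71.1 percentile. Intron 1 carried a further Kac peak from +8.4 kb over 3098 bp in control and from +8.1 kb over 5215 bp under SB, with no Kbz over it. Covered length was 8.51 kb in control Kac and 16.6 kb in SB Kac.

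**Figure D3:**
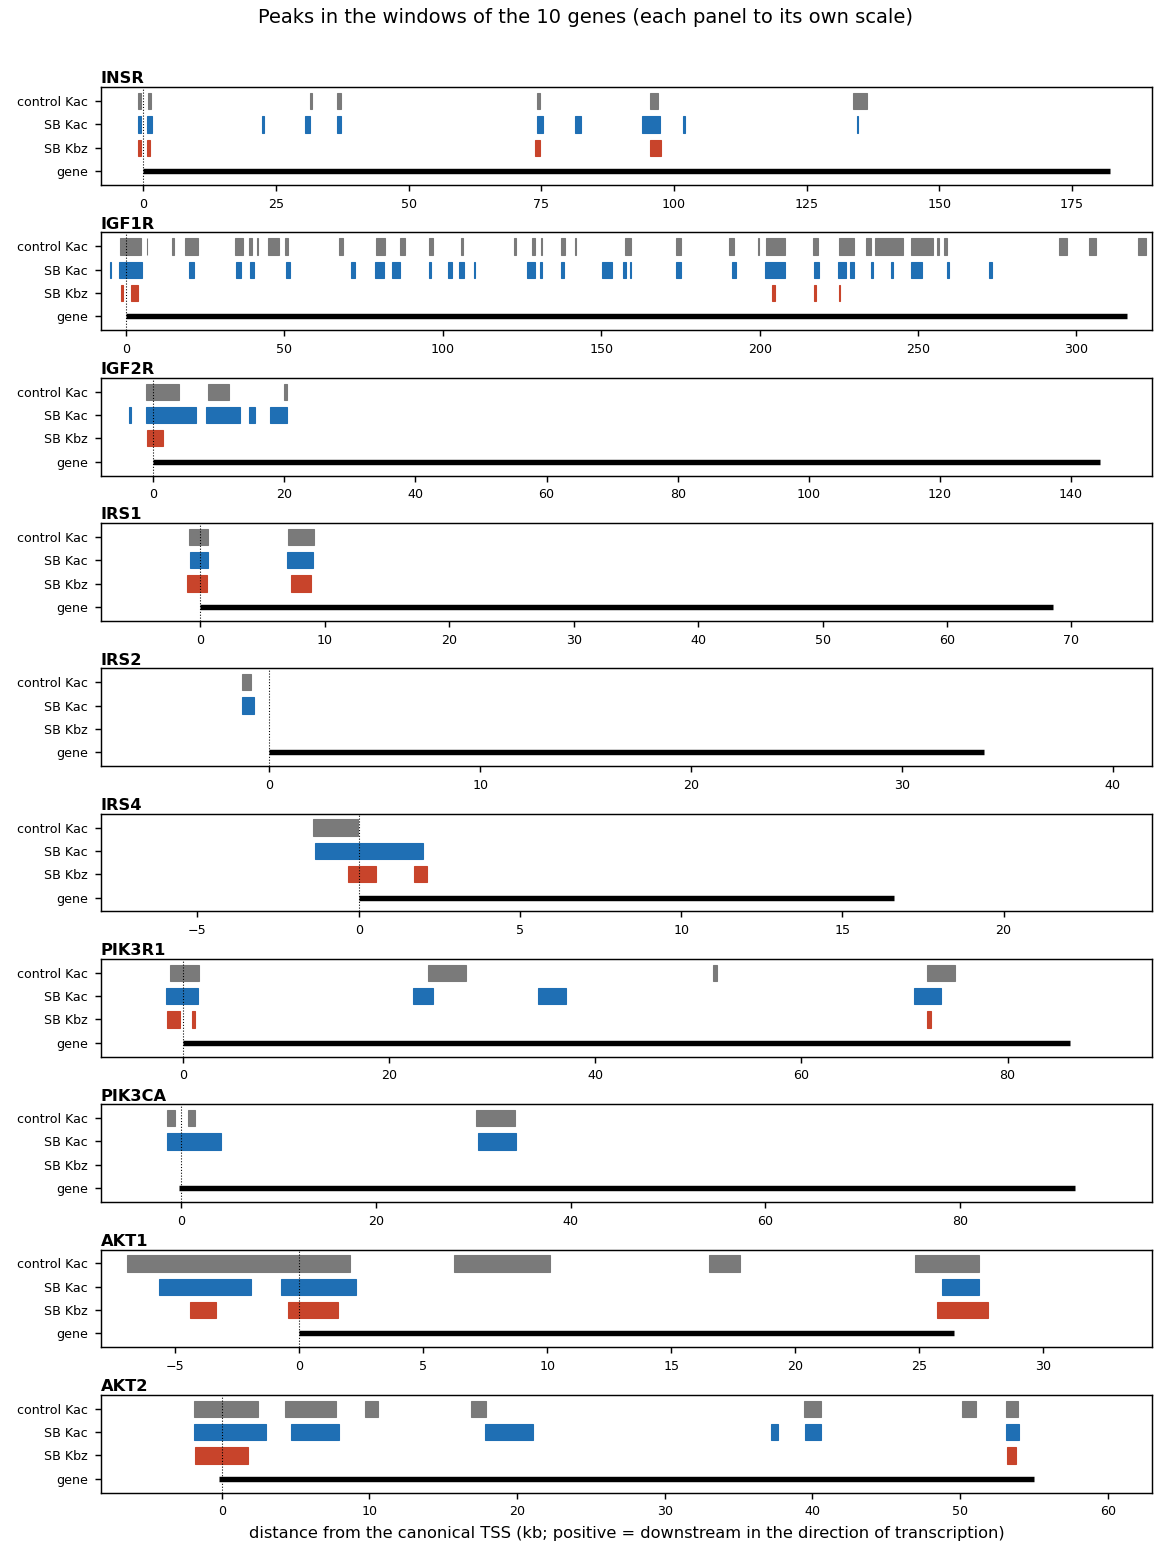
Peaks across the window of each of the 10 genes, 1 panel per gene with its own scale; the x axis is the distance from the canonical TSS in kb, rows are control Kac (grey), SB Kac (blue) and SB Kbz (red), the black line is the gene body and the dotted line the TSS. IGF1R is filled with 34 control Kac and 30 SB Kac peaks, whereas the peaks of IGF2R, IRS1, IRS2 and IRS4 keep to the 5′ part of the window.

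IRS1 (ENSG00000169047.6), at chr2:226731312-226799820 on the minus strand, encodes a docking protein that couples both receptors to PI3K. It had the same 2 sites in all 3 lists and no other peak. The promoter peak crossed the TSS, from −881 to +609 bp in control cells, −818 to +651 bp under SB and −1092 to +566 bp in Kbz. Its rank was at the 74.8 and 85.6 percentile of the Kac lists and the 23.3 percentile of Kbz. The intron 1 site, from about +7 to +9 kb, held the highest ranked peak of all 10 genes in each list, at the 96.7 percentile of control Kac, the 99.3 of SB Kac and the 98.1 of Kbz. Its −log10 q was 10.5, 20.4 and 19.5. The start of a shorter annotated IRS1 transcript lies within 3 kb of this site, which is the CpG-rich core printed above. As at INSR, Kbz ranked higher at the intronic site than at the canonical promoter.

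IRS2 (ENSG00000185950.9), at chr13:109752695-109786583 on the minus strand, encodes a docking protein with a large role in insulin signalling in liver. It carried the least of the 10. A control Kac peak of 425 bp lay from −1292 to −868 bp and an SB Kac peak of 538 bp from −1290 to −753 bp, at the 71.4 and 65.1 percentile, with a −log10 q of 4.15 and 3.53. The start of another annotated gene also lies within 3 kb of both peaks, so they cannot be assigned to IRS2 alone. There was no peak over IRS2 itself and none in Kbz. The promoter was nonetheless the one with the most CCAAT boxes of the 10, 2 in the 250 bases printed above.

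IRS4 (ENSG00000133124.12), at chrX:108719946-108736563 on the minus strand, encodes a member of the same family that is found in few adult tissues. The control Kac peak ran from −1413 to −36 bp, ending just before the TSS, and the SB Kac peak from −1363 to +2003 bp, across it. Their ranks were close, at the 52.4 and 60.1 percentile. Kbz had 1 peak from −335 to +537 bp, at the 23.6 percentile, and 1 from +1719 to +2105 bp in exon 1, at the 7.22 percentile. The latter, 387 bp long with a −log10 q of 1.55, was the only Kbz peak of the 10 genes with no control Kac peak over it.

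PIK3R1 (ENSG00000145675.16), at chr5:68215740-68301821 on the plus strand, encodes p85alpha and shorter regulatory subunits from internal starts. Kac crossed the canonical TSS over 2795 bp in control and 3099 bp under SB, at the 83.9 and 80.3 percentile. Kbz flanked it, from −1564 to −367 bp at the 50.3 percentile and from +811 to +1157 bp at the 18.5 percentile. An internal RefSeq start, 72763 bp downstream at position 68288519, lay under Kac in both lists, at the 69.7 percentile of control and the 77.6 of SB. Kbz had a small peak just upstream of that start, from +72224 to +72526 bp, at the 22.7 percentile. So at the canonical start of PIK3R1 and at this internal one, Kac covered the TSS and Kbz lay beside it. A further RefSeq start at +74.9 kb was under control Kac only, and one at +76.8 kb was under no list.

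PIK3CA (ENSG00000121879.6), at chr3:179148114-179240093 on the plus strand, encodes p110alpha. Control Kac lay on either side of the TSS, from −1474 to −654 bp and from +690 to +1482 bp, at the 42.7 and 33.2 percentile. SB Kac made 1 peak of 5554 bp from −1446 to +4107 bp, across the TSS, at the 62.2 percentile. Their −log10 q was 2.56 and 2.05 in control and 3.24 under SB. The strongest control Kac promoter peak of PIK3CA thus had the lowest −log10 q among the 10 genes, and the SB Kac one was close to the lowest, 3.22 at IRS4. A second Kac site in intron 1, from about +30 to +34 kb, was in both lists at the 56.7 and 67.1 percentile. PIK3CA had the promoter with the lowest GC content of the 10 and, with IRS2, no Kbz peak.

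AKT1 (ENSG00000142208.18), at chr14:104769349-104795751 on the minus strand, encodes a widely expressed kinase downstream of PI3K. Control Kac formed a domain of 9007 bp from −6946 to +2060 bp. Under SB the same stretch held 2 peaks, from −753 to +2273 bp and from −5657 to −1942 bp, with a gap between them. Kbz also had 2 peaks here, from −463 to +1561 bp at the 23.3 percentile and from −4408 to −3348 bp at the 2.84 percentile. The upstream peaks of SB Kac and Kbz, and the upstream part of the control domain, lie at the start of the neighbouring gene ZBTB42, so they cannot be assigned to AKT1 alone. Control Kac had 2 peaks in introns with no SB Kac counterpart, at the 44.6 and 39.6 percentile. They ran from +6.2 to +10.1 kb and from +16.5 to +17.8 kb, each within 3 kb of another annotated AKT1 start. A site at the 3′ end, from +24.8 to +27.4 kb in control Kac, was in all 3 lists at the 56.2, 65.4 and 40.7 percentile and lies at the start of another annotated gene. Covered length was 14.8 kb in control Kac, 7.60 kb in SB Kac, and the share of the window under Kbz, 14.1%, was the largest of the 10.

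AKT2 (ENSG00000105221.18), at chr19:40230317-40285536 on the minus strand, encodes the AKT kinase most tied to insulin action on glucose. All 3 lists covered its TSS with one peak, of 4333 bp for Kac in control cells, 4888 bp for Kac under SB and 3610 bp for Kbz, at the 87.8, 88.9 and 76.9 percentile. This was the longest Kbz peak of the 10 genes. The last exon, exon 14, held a peak near +53 kb in all 3 lists, at the 72.8, 54.2 and 30.3 percentile. A second RefSeq start, at +20.0 kb, lay under an SB Kac peak at the 28.4 percentile and under no peak of the other lists. In contrast to AKT1, covered length was about the same with and without SB, 12.6 kb and 13.7 kb.

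**Figure D4:**
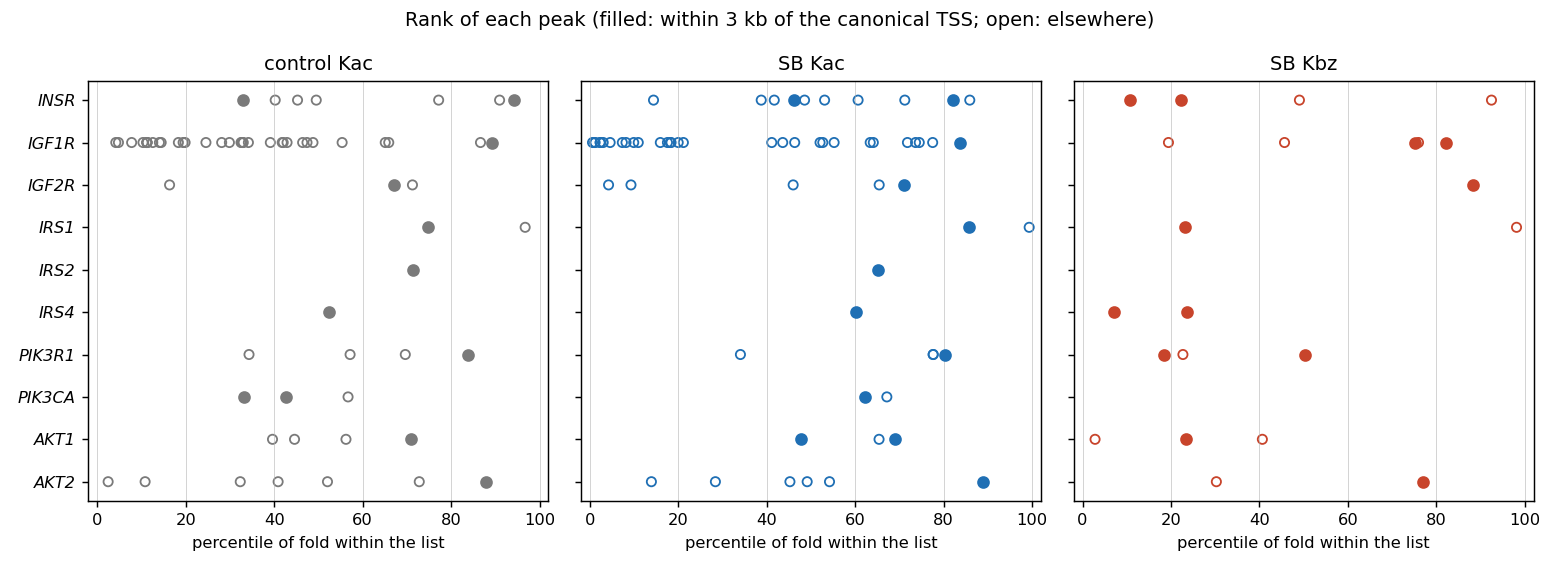
Rank of every peak in the windows of the 10 genes as the percentile of its fold within its own list (x axis, 0 to 100), 1 panel for each list; filled points lie within 3 kb of the canonical TSS and open points elsewhere. In the Kac panels most filled points lie to the right (median 71.2 in control and 70.0 under SB), while in the Kbz panel their median is 23.5 and the open points of IRS1 and INSR stand farthest right.

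Over the 10 genes, each list had 12 peaks within 3 kb of a canonical TSS. These were the stronger ones in the Kac lists, with a median at the 71.2 percentile of control Kac and the 70.0 of SB Kac, against 36.7 and 42.6 for peaks elsewhere in the windows. In Kbz the order was the other way, 23.5 at canonical promoters and 43.2 for the 10 peaks elsewhere. Of those 10, 3 lay at another start of the same gene (median 22.7) and 2 at the start of another gene (21.75). One exonic peak was at 30.3, and the 4 intronic peaks had a median of 62.5. Only the intronic median thus stood well above that of the canonical promoters, and Kbz was not lower at promoters in general. The ranks of Kbz peaks at canonical promoters were spread, from 7.22 at IRS4 to 88.3 at IGF2R, and with 1 library the order was not tested. The same split was not made over the whole lists, so the order cannot be called particular to these genes. The lists also differ in size, so percentiles of Kac and Kbz are ranks among different sets of peaks.

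Control and SB Kac shared most of their peaks at these genes. Of the 66 control Kac peaks 49 (74.2%, Wilson 95% interval 62.6 to 83.3) overlapped an SB Kac peak by at least 1 bp, against 64.7% of the whole control list. In reverse, 51 of 64 SB Kac peaks (79.7%, 68.3 to 87.7) had control Kac over them, against 72.5% of the whole SB list. The whole-list share lay within the interval in both cases. These intervals cover counting error only. Where the overlap had to reach 50% of the length of both peaks, the shares were 40.9% and 42.2%. IGF1R supplied 12 of the 17 control peaks without SB Kac and 6 of the 13 SB peaks without control Kac. At INSR, IGF2R, IRS1, IRS2, IRS4 and PIK3CA every control Kac peak had an SB Kac peak over it.

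Most unshared Kac peaks ranked low. Their median was at the 24.6 percentile in control and the 13.9 under SB, against 48.8 and 52.7 for shared peaks. The medians of shared and unshared peaks were not computed over the whole lists. The highest −log10 q was 3.42 among the 17 unshared peaks in control and 6.002 among the 13 under SB. The 3 highest ranked control Kac peaks without SB Kac were at the 44.6, 42.0 and 40.9 percentile. They were the AKT1 intron 3 peak, the IGF1R exon 19 peak and an AKT2 intron 1 peak at +9.7 to +10.6 kb. The AKT1 peak lay within 3 kb of another AKT1 start, and the AKT2 peak within 3 kb of the start of another gene. The 3 highest ranked SB Kac peaks without control Kac were the IGF1R peak at +150.1 kb, the INSR peak at +101.6 kb and an INSR intron 1 peak at +22.4 to +22.8 kb, at the 73.6, 71.2 and 53.1 percentile, all above the median of the shared SB Kac peaks.

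Kbz lay inside the acetylated part of these genes. All 22 Kbz peaks (100%, 85.1 to 100) overlapped an SB Kac peak, against 93.7% of the whole Kbz list, and 21 overlapped a control Kac peak. In the other direction 19 of 64 SB Kac peaks (29.7%, 19.9 to 41.8) overlapped a Kbz peak, against 33.8% of the whole SB Kac list. Both whole-list shares lay within the intervals. With 50% of both lengths required, the shares were 45.5% and 15.6%. The SB Kac peaks with Kbz had a median at the 74.5 percentile and those without at the 34.0. Peaks away from canonical promoters, which in both groups included some at other annotated starts, kept the same order. Their medians were 74.5 for the 9 SB Kac peaks with Kbz and 28.4 for the 43 without. These medians were not computed over the whole SB Kac list, so the order cannot be called particular to these genes.

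Peaks at the canonical promoters were richer in GC and CpG than peaks elsewhere in the windows. Peaks at the canonical promoters had a median GC content of 56.3%, 59.4% and 57.1% in control Kac, SB Kac and Kbz, and a CpG ratio of 0.675, 0.664 and 0.705. Elsewhere in the windows the Kac medians were 48.6% and 48.0% GC with CpG ratios of 0.241 and 0.268. Kbz peaks elsewhere were intermediate, 54.5% GC and a ratio of 0.428. Over the whole lists the ratios were 0.238, 0.252 and 0.473, so the Kbz list as a whole was also richer in CpG than the Kac lists. Whole lists were not split into canonical promoters and the rest, so the contrast cannot be called particular to these genes.

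The rest of the pathway was described with a list of 43 other genes. A promoter peak was present at 39 of them for Kac in control cells, 37 for Kac under SB and 35 for Kbz, against the 76.5%, 75.7% and 64.6% of protein-coding genes given above. All 7 genes of the mTOR branch, which senses growth signals and nutrients, and all 3 phosphatases, INPPL1, PTPN1 and PTPN11, had promoter peaks in all 3 lists. So did 7 of 8 other receptor, substrate and adaptor genes and 5 of 6 other PI3K and AKT genes, where SH2B2 and PDPK1 had Kac but no Kbz at the promoter. RPTOR, a subunit of mTOR complex 1, resembled IGF1R in its number of peaks, with 36 and 37 Kac peaks in control and SB-treated cells and 6 Kbz peaks.

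**Figure D5:**
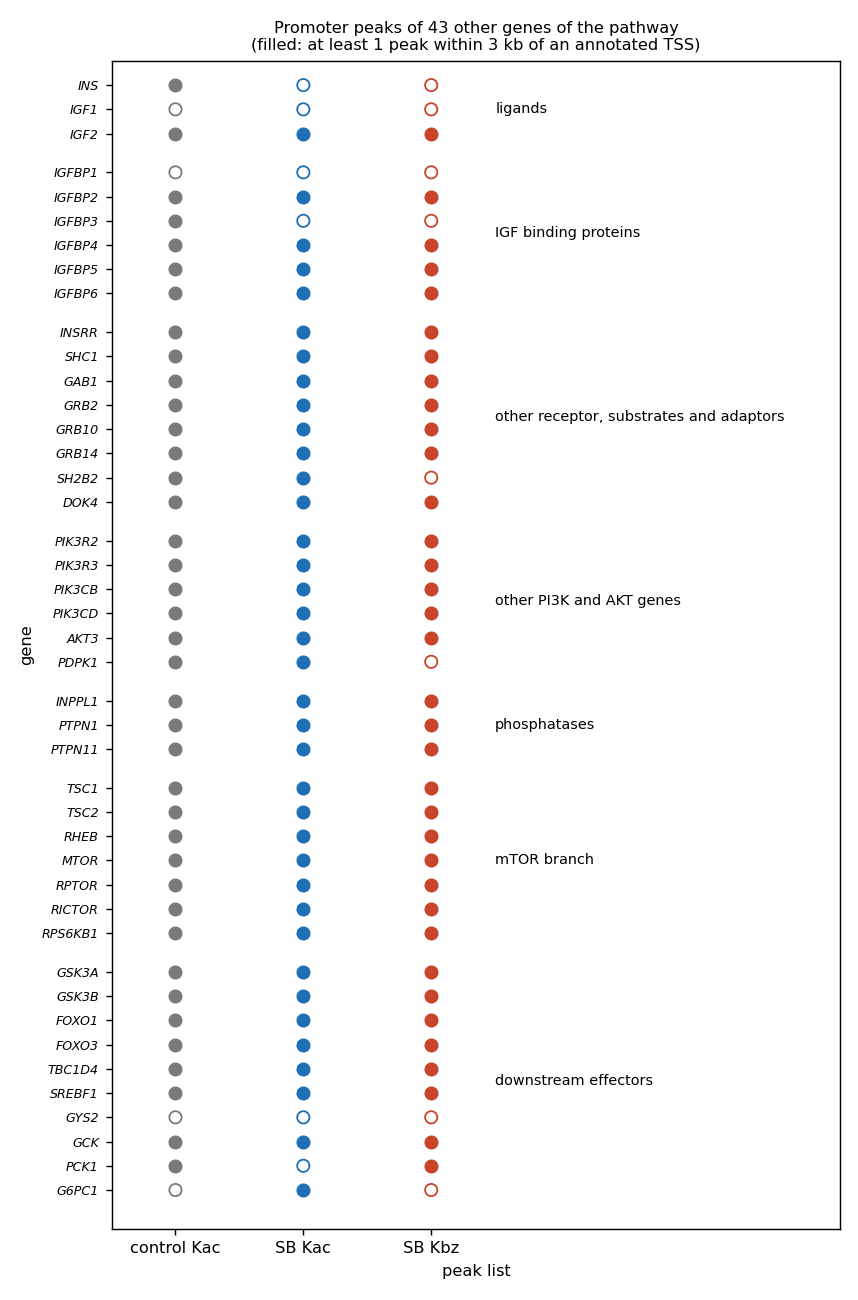
Promoter peaks of the 43 other genes of the pathway, by group; columns are the 3 peak lists, a filled circle marks at least 1 peak within 3 kb of an annotated TSS and an open circle none. All circles of the phosphatases and the mTOR branch are filled, and open circles gather among the ligands, the IGF binding proteins and the downstream effectors.

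The other genes that lacked a promoter peak in some list were secreted factors and metabolic enzymes. Of the 3 ligands, IGF1 had no promoter peak in any list, INS had one in control Kac only and IGF2 had one in all lists. The INS window nonetheless held 1 SB Kac and 2 Kbz peaks outside its promoter. Of the 6 IGF binding proteins, IGFBP1, an insulin-repressed liver gene, had none, and IGFBP3 had one in control Kac only. Among 10 downstream effectors, FOXO1, FOXO3, GSK3A and GSK3B had promoter peaks in all lists. GYS2, the liver glycogen synthase, had none. PCK1, which makes phosphoenolpyruvate for gluconeogenesis, had them in control Kac and Kbz but not SB Kac, and G6PC1, which releases free glucose, in SB Kac only. The G6PC1 window held 2 control Kac peaks away from its promoter, while the windows of IGFBP3 and PCK1 held no SB Kac peak. The share of protein-coding genes whose promoter call differs between the Kac lists was not computed, so these differences stand without a background.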

How the data were processed

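ChIP-seq peaks of HepG2 cells were taken from 3 deposited lists, control Kac, SB Kac and SB Kbz, with 1 library each. By the study's methods and its labels, the authors prepared chromatin with micrococcal nuclease, sequenced 50 bp single reads, aligned them to hg38 with Bowtie2 2.2.6, kept unique reads, removed duplicates with SAMtools 0.1.19 and called broad-format peaks with MACS2 2.1.1 at a stated false discovery rate of 0.01. The broad setting and the background track are not given in the sources used here. The deposited score, a display integer, was not used. The deposited fold, a ratio over background, was used as a percentile within its list, and the deposited −log10 p and −log10 q as thresholds. The lowest −log10 q was 1.31, so the lists reach beyond the stated rate. Such values are averages over a whole broad peak. Depth is unknown, and a deeper library can yield more and longer peaks.

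Peaks on 24 chromosomes were used, and 3 control Kac peaks elsewhere were left out. Genes came from GENCODE 44, 1 canonical TSS per gene from its Ensembl canonical tag. Overlap meant at least 1 bp. Counts of genes and of overlaps under the main settings were set beside all 20033 protein-coding genes or the whole list. Every gene of the list is described, with the peaks nearest the TSS and of highest fold and, for unshared peaks, the 3 of highest fold. The genes, the pathway list and the marker genes were chosen with earlier results of these data known, and 2 genes of the latter lists are not reported here. The motif search used both strands of the 250 bases before a RefSeq start. Calculations used Python 3.11.15, numpy 2.4.6, pandas 2.3.3, scipy 1.17.1 and matplotlib 3.10.9. In a test on simulated data the overlap code recovered 1000 of 1000 planted regions and called 0 of 1000 planted beside peaks, and 0 of 12 comparisons with bedtools 2.31.1 differed.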

Additional observations from a re-analysis of the deposited data

How the results depend on the processing

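Of 72 values recomputed under the alternatives, 45 stayed within 1.5 times the reported count or inside the counting interval of the reported share, and 27 moved. When each list was reduced to its 15000 most significant peaks by −log10 p, 6 genes had a control Kac and 6 an SB Kac peak in the window, 5, 6 and 5 had a promoter peak in control Kac, SB Kac and Kbz, and the windows held 8, 12 and 10 peaks. In that setting 100% of control Kac peaks overlapped SB Kac, 66.7% of SB Kac peaks overlapped control Kac, 58.3% overlapped Kbz, and 80.0% of Kbz peaks overlapped SB Kac. At −log10 q values of 5 and above, the windows held 13, 16 and 7 peaks, Kbz was in the window of 5 genes and at the promoter of 4, and 84.6% of control Kac peaks overlapped SB Kac. Counting a promoter only where the peak covered the canonical TSS left 6 genes in control Kac and 5 in Kbz. With 50% of the own length of a peak required, the shares were 54.5% for control Kac with SB Kac, 57.8% for SB Kac with control Kac and 15.6% for SB Kac with Kbz. With 50% of both peaks they were 40.9%, 42.2% and 15.6%, and 45.5% for Kbz with SB Kac. The gene body with no flank, the midpoint rule, a −log10 q of at least 2 and a 1 kb promoter moved none of the values computed under them. No paired analysis was possible because no group had more than 1 library, and for the same reason no library could be left out. For the 15000-peak and −log10 q settings, shares over all protein-coding genes and over the whole lists were not recomputed. Whole-list shares were not recomputed under the 50% rules either, so these values stand without a background. Depth, unknown here, limits every comparison of peak number and length between lists.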
